A study of Mus musculus with 6 samples.

Results

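Endothelial leukocyte adhesion receptors are the surface proteins with which the vessel wall catches, holds and passes on white blood cells, and 8 of their genes were followed here among the 49315 genes counted. They were chosen by name and matched to the gene symbols in the authors' deposited table: Selp, Sele, Icam1, Icam2, Vcam1, Madcam1, Ackr1 and Pecam1. RNA was sequenced from endothelial cells out of 4T1 tumours. 4T1 is a mouse mammary carcinoma line that can be transplanted into Balb/c mice. Females aged 8 weeks received the cells in the inguinal mammary fat pad, and the tumours were taken after 2 weeks, at a mouse age of 10 weeks. The mice had been given 1E12 gold nanoparticles, 50 nm wide and coated with 5K mPEG (methoxy-polyethylene glycol) and labelled with the dye Cy5, through the tail vein 1 hour before harvest. There were 3 tumours, with the codes MET-106, MET-107 and MET-108. Cells that were depleted of CD45 and enriched for CD31 were sorted into a nanoparticle-positive (NP+) and a nanoparticle-negative (NP-) fraction, with 1 library of each from every tumour. Both groups therefore come from mice given the particles, and no uninjected animals are part of the comparison. The gate that split the fractions is not given in the labels. The MET codes are read here as the tumour of origin, and where 3 values of a group are listed they keep that order of codes.

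Leukocytes leave the blood in steps. Selectins on the endothelium bind sugars on the leukocyte and let it roll, chemokines presented at the vessel surface activate its integrins, and immunoglobulin-type receptors such as ICAM-1 and VCAM-1 then hold it firmly until it crosses at the junctions, where PECAM-1 sits. Selp encodes P-selectin, which is stored in Weibel-Palade bodies and can reach the surface quickly, and Sele encodes E-selectin, which is made when cytokines induce its gene. Icam1 and Icam2 encode ligands of leukocyte beta-2 integrins, the first inducible and the second constitutive on resting endothelium. Vcam1 encodes the ligand of integrin alpha-4 beta-1, and Madcam1 that of integrin alpha-4 beta-7, known from mucosal vessels. Ackr1 encodes an atypical chemokine receptor of venules that carries chemokines across the cell without signalling through G proteins. Venules are the usual site of this traffic.

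The libraries held 41830256 to 58089600 gene counts in NP+ and 20856410 to 44694267 in NP-. The 3 NP+ libraries resembled each other (Pearson r of log2 CPM, counts scaled to a common library total, with a pseudocount of 1, was 0.989 to 0.993). The NP- libraries differed more from each other (0.913 to 0.933). That of MET-106 was nearer to the NP+ libraries (0.968 to 0.970) than those of MET-107 and MET-108 were (0.922 to 0.941). The NP- library of MET-106 also held the most fibroblast and epithelial RNA. The summed level of 7 fibroblast markers was 21.3 to 69.4 CPM in NP+ libraries, and 4112, 159 and 70.9 CPM in the NP- libraries. For 7 epithelial markers, which 4T1 cells can express, it was 7.85 to 11.7 CPM in NP+, against 566, 30.1 and 14.6 CPM in NP-. For 7 pericyte markers it was 91.2 to 112 CPM in NP+, against 734, 217 and 139 CPM in NP-. Endothelial markers were high in all 6 libraries, and 16 of them summed to 13106 to 14254 CPM in NP+, against 8296 to 10360.1 CPM in NP-. All 16 had a positive log2 fold change (NP+ over NP-), with a median of 0.43, and 14 did with upper-quartile or total-count scaling. In bulk libraries, fewer cells of a type and less RNA per cell cannot be told apart.

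The promoters of Selp, Sele, Icam1 and Madcam1 are shown because these 4 genes span the receptors from the largest to the smallest difference between the groups and are known, in mouse or human endothelium, to be read by inflammatory transcription factors. Sequences are from RefSeq (GRCm38.p6), run 5′ to 3′ on the gene's strand and cover 250 bases before to 50 bases from the annotated start. They lie at chr1:164115014-164115313 for Selp, chr1:164047984-164048283 for Sele, chr9:21015690-21015989 for Icam1 and chr10:79664309-79664608 for Madcam1, all on the plus strand. Capitals mark matches, on either strand, to the kappaB consensus bound by NF-kappaB, to its looser form GGNNNTTCC, to the AP-1 motif TGANTCA, to TATAAA, and to the GATA motifs TGATAA and AGATAA.
Selp: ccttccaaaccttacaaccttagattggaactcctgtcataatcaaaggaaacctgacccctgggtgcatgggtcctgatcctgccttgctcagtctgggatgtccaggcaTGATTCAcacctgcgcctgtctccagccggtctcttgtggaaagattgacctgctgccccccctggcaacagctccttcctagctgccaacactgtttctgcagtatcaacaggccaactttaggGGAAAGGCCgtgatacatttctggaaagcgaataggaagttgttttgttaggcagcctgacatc
Sele: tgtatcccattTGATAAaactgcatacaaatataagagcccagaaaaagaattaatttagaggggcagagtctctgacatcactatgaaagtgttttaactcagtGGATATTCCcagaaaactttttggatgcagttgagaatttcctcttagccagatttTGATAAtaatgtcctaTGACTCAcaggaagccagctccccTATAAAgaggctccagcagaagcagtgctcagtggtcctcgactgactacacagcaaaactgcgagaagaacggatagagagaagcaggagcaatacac
Icam1: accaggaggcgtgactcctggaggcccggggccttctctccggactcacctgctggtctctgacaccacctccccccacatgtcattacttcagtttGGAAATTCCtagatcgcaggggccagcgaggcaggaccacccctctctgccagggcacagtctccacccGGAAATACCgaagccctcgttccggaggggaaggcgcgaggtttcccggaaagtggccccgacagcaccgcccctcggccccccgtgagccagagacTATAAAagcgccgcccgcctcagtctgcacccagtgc
Madcam1: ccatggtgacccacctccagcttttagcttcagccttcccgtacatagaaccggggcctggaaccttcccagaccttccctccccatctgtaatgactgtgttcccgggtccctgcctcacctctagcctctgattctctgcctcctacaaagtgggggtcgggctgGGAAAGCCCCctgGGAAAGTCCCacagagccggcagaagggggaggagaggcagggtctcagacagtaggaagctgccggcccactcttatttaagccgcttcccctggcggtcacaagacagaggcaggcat

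The kappaB consensus, a string of 10 letters, was found in Madcam1, where it occurs at -83 to -74 and at -70 to -61 from the start, and in none of the other 4 receptors with a promoter in the RefSeq table (Selp, Sele, Icam1 and Ackr1). It occurs in 8.46% of all 32851 promoters of this length. GGNNNTTCC was added after the sequences had been seen. It was found in 5 of 5 receptor promoters and in 18.5% of all promoters, and it overlaps both kappaB matches of Madcam1. In Sele it lies at -145 to -137, in Icam1 at -153 to -145 and again at -84 to -76, and in Selp at -14 to -6. TGANTCA was found in Selp (-139 to -133) and Sele (-73 to -67), and in 7.81% of all promoters. TATAAA was found in Sele (-49 to -44) and in Icam1 (14 to 19), against 13.6% of all promoters. The RefSeq start and the gene's start in the count files were the same for Selp and Sele. Counted as positive where the RefSeq start comes first, they were 45 bases apart for Icam1, 15 for Madcam1 and -247 for Ackr1, so that the Ackr1 window lies almost wholly within the gene as counted. The GATA motifs were found in Sele and Ackr1 and in 18.6% of all promoters, and at least 2 copies of GGAA, the core of ETS motifs, in 5 of 5 and in 84.6%. Vcam1, Icam2 and Pecam1 are not in the table. A match is a string of letters, not a measured binding site.

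Selp, Icam1 and Vcam1 stood higher in NP+ than in NP- cells in 3 of 3 tumours, at 3.81, 2.38 and 1.90 times the NP- mean, and Ackr1 at 1.95 times. Pecam1 and Icam2, the constitutive receptors, stood at 1.40 and 1.28 times, Sele at 1.64 times and Madcam1 at 1.21 times. In CPM, 7 of 8 receptors were higher in NP+ in 3 of 3 tumours, which held for 20% of all tested genes. That share includes low-count genes, and the one among genes averaging at least 5 CPM was not computed. On the length-scaled level (TPM), Icam2 (404 in NP+ against 443 in NP-) and Pecam1 (1331 against 1343) were lower in NP+ in MET-108. No receptor had an adjusted p under 0.05 in edgeR's quasi-likelihood test without a tumour block, a threshold that 7 of 23989 tested genes (0.0292%) passed, 0.0125% as higher in NP+. With the tumour as a block, Selp passed (edgeR adjusted p = 0.0319), with 0.00834% of all tested genes called higher in that fit. At an unadjusted p under 0.05, 5 of 8 receptors were higher (Selp, Icam1, Vcam1, Ackr1 and Pecam1) and 0 lower. All tested genes were higher at that threshold in 8.01% of cases and lower in 15.4% (edgeR), and among the 10825 genes that average at least 5 CPM, as all 8 receptors do, 17.5% were higher. The median log2 fold change (NP+ over NP-) was 0.82 for the receptors, -0.29 for all tested genes and 0.24 for those with at least 5 CPM on average. The receptors' count of 5 became 3 without the NP+ library of MET-106 or the NP- library of MET-107, and 3 when scaled by the upper quartile or by total counts or when genes under 5 CPM were left out of the fit. Ackr1 and Pecam1 were the receptors lost under those scalings. The block on tumour also gave 5, but there Pecam1 was lost (edgeR unadjusted p = 0.0658) and Sele gained (edgeR unadjusted p = 0.00904).

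**Figure D1:**
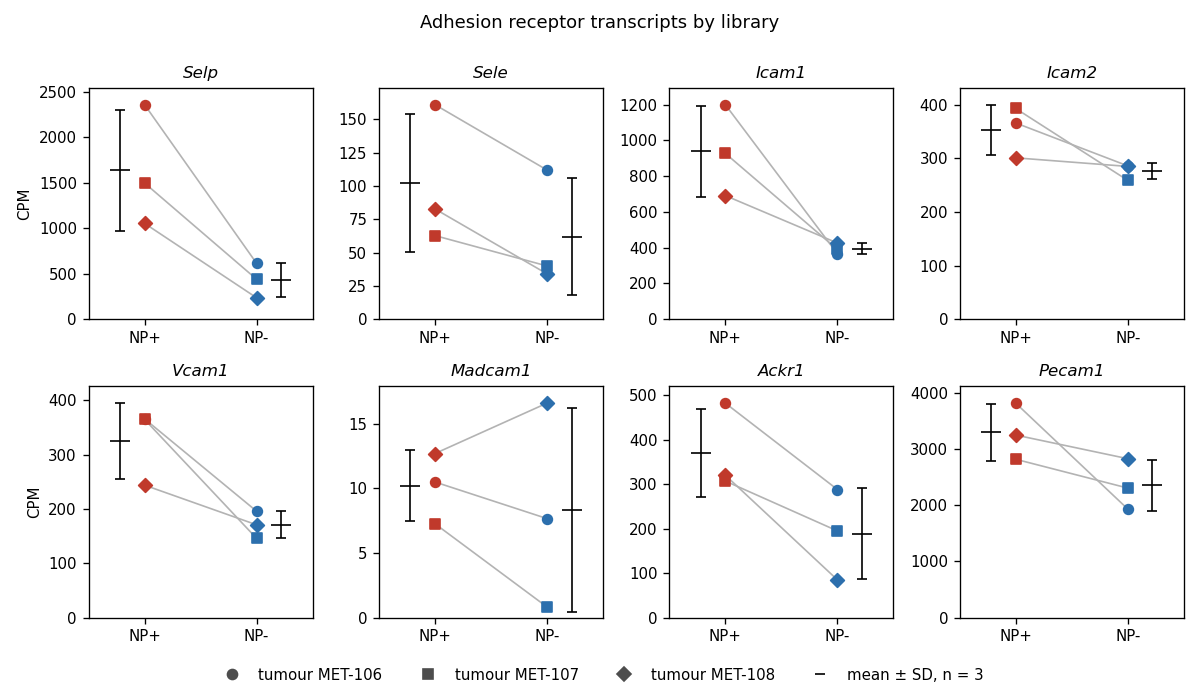
Level of each receptor in the 6 libraries, in CPM (linear axes from 0), with NP+ in red at the left and NP- in blue at the right of each panel. Lines join the 2 libraries of a tumour, and black bars give mean ± SD (n = 3). Lines slope down from NP+ to NP- in all 3 tumours for 7 receptors, while Madcam1 of tumour MET-108 goes the other way (12.7 CPM in NP+ against 16.6 CPM in NP-).

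P-selectin (Selp, ENSMUSG00000026580, chromosome 1 from 164115264 to 164150026 of GRCm38, plus strand) showed the largest difference of the 8. It stood at 2356, 1496 and 1053 CPM in the NP+ libraries, against 614, 439 and 236 CPM in their NP- libraries. In CPM every NP+ library lay above every NP- library. This held for 5 of 8 receptors, for 13.3% of all tested genes and for 27.3% of those averaging at least 5 CPM. Icam2, among the 5, overlapped between the groups in TPM. In both fractions MET-106 was highest and MET-108 lowest. The NP+ to NP- ratio within a tumour was 3.84, 3.41 and 4.47. Its log2 fold change was 1.93 with an SE of 0.39 (edgeR adjusted p = 0.0992). With the tumour as a block it was 1.96 with an SE of 0.20, and Selp passed (edgeR adjusted p = 0.0319). Selp also passed without the NP- library of MET-106, the one with the most fibroblast and epithelial RNA (log2 fold change 2.34, edgeR adjusted p = 0.0285). That fit called 968 of 27794 genes higher in NP+, against 3 of 23989 with all 6 libraries. Over all alternatives the adjusted p of Selp ran from 0.00013 to 0.395 and its log2 fold change from 1.63 to 2.34.

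E-selectin (Sele, ENSMUSG00000026582, chromosome 1 from 164048234 to 164057677, plus strand), the neighbour of Selp on the chromosome, did not separate the groups. It stood at 161, 62.8 and 82.8 CPM in the NP+ libraries, against 112, 40.0 and 34.1 CPM in the NP- libraries. Tumour MET-106 was the highest in both fractions, and its NP- library lay above the NP+ libraries of the other tumours. The NP+ to NP- ratio within a tumour was 1.43, 1.57 and 2.43. In edgeR the log2 fold change was 0.71 with an SE of 0.50 (edgeR adjusted p = 0.387), and 0.81 with an SE of 0.23 with the tumour as a block (edgeR adjusted p = 0.129). Over all alternatives the adjusted p ran from 0.0559 to 0.821. The log2 fold change was 1.52 without the NP- library of MET-106 and 0.27 without the NP+ library of MET-106, and it was 0.49 and 0.44 without the NP- library of MET-107 or of MET-108. Per length (TPM, the length-scaled counterpart of CPM), Selp stood 9.68, 15.7 and 8.40 times as high as Sele in NP+ libraries, and 3.61, 7.24 and 4.57 times as high in NP- libraries. That ratio does not depend on library scaling, and its groups did not overlap (two-sided exact permutation p = 0.1, the smallest that 3 against 3 libraries allow).

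Icam1 (ENSMUSG00000037405, chromosome 9 from 21015985 to 21028817, plus strand), which encodes the inducible integrin ligand, stood at 1199, 927 and 691 CPM in the NP+ libraries. In the NP- libraries it stood at 366, 390.0 and 426 CPM. The NP- values were close together and all lay below the NP+ values. The ratio within a tumour was 3.27, 2.38 and 1.62. Its log2 fold change was 1.25 with an SE of 0.22 (edgeR adjusted p = 0.0875), and the tumour block left it short of the threshold (1.22, edgeR adjusted p = 0.0974). Without the NP- library of MET-106 it passed (1.26, edgeR adjusted p = 0.0369), in a fit that called 968 of 27794 genes higher. Over all alternatives the adjusted p of Icam1 ran from 7.91e-05 to 0.393.

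Icam2 (ENSMUSG00000001029, chromosome 11 from 106377656 to 106388075, minus strand), which encodes the constitutive integrin ligand, stood at 366, 393 and 301 CPM in the NP+ libraries, against 286, 259 and 285 CPM in the NP- libraries. In CPM the groups did not overlap, but by a narrow gap, with a ratio of 1.06 in MET-108. In TPM they overlapped, at 500.2, 524 and 404 in the NP+ libraries against 403, 403 and 443 in the NP- libraries. In edgeR the log2 fold change was 0.35 with an SE of 0.17 (edgeR adjusted p = 0.244). It was 0.11 when scaled by the upper quartile and 0.06 by total counts. The TPM of Icam1 over that of Icam2 was 1.43, 1.03 and 1.00 in NP+ libraries and 0.559, 0.657 and 0.653 in NP- libraries. Icam1 was level with or above Icam2 in every NP+ library and below it in every NP- library (two-sided exact permutation p = 0.1).

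Vcam1 (ENSMUSG00000027962, chromosome 3 from 116109949 to 116129688, minus strand), the gene of the other firm-adhesion receptor, stood at 366, 365 and 244 CPM in the NP+ libraries. Its NP- values were 196, 146 and 171 CPM. Every NP+ library lay above every NP- library, and the ratio within a tumour was 1.86, 2.49 and 1.43. The log2 fold change was 0.92 with an SE of 0.21 (edgeR adjusted p = 0.113). Without the NP- library of MET-106 Vcam1 passed (1.09, edgeR adjusted p = 0.0406), in the fit that called 968 of 27794 genes higher. Over all alternatives the adjusted p of Vcam1 ran from 0.00779 to 0.413. Fibroblasts and pericytes can express Icam1 and Vcam1 as well, and their markers, given above, were higher in NP- libraries, most of all in that of MET-106. Their part in these values was not tested. Without that library the log2 fold changes were 1.26 for Icam1 and 1.09 for Vcam1.

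Madcam1 (ENSMUSG00000020310, chromosome 10 from 79664574 to 79668536, plus strand) was the lowest of the 8 and had no common direction. It stood at 10.5, 7.27 and 12.7 CPM in the NP+ libraries, and at 7.67, 0.832 and 16.6 CPM in the NP- libraries. The NP- values spanned the NP+ values, and that of MET-107 rested on 20 reads. The ratio within a tumour was 1.36, 8.74 and 0.768. Its log2 fold change was 0.28 with an SE of 0.79 (edgeR adjusted p = 0.840), -0.24 without the NP- library of MET-107 and 1.25 without that of MET-108. It was -0.01 when scaled by the upper quartile and -0.0016 by total counts.

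Ackr1 (ENSMUSG00000037872, chromosome 1 from 173331886 to 173333750, minus strand), the venular chemokine receptor gene, stood at 482, 307 and 320.1 CPM in the NP+ libraries, against 288, 195 and 85.1 CPM in the NP- libraries. The groups did not overlap, and as for Selp and Sele the library of MET-106 was the highest of each fraction. The ratio within a tumour was 1.67, 1.57 and 3.76. In edgeR the log2 fold change was 0.96 with an SE of 0.40 (edgeR adjusted p = 0.193). It was 0.63 without the NP- library of MET-108 and 1.46 without that of MET-106. Red cell precursors also express Ackr1. The summed level of 7 erythroid markers was 9.56 to 15.9 CPM in NP+ libraries and 58.2, 8.44 and 46.3 CPM in the NP- libraries, and its part in the Ackr1 values was not tested. Without strand or multi-mapping settings, reads of overlapping genes are uncertain. Exons of Ackr1 share 361 bases with those of Cadm3 on the same strand, a gene with 835 reads in all against 68218 for Ackr1. The antisense genes that overlap exons of Selp, Icam1 and Vcam1 had 123 to 462 reads in all, against 256925, 161675 and 61061 for the 3 receptors.

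Pecam1 (ENSMUSG00000020717, chromosome 11 from 106654217 to 106750628, minus strand) encodes CD31, on which the cells of both fractions had been enriched. It was the highest of the 8, at 3812, 2815 and 3245 CPM in the NP+ libraries and 1931, 2303 and 2825 CPM in the NP- libraries. The groups met, since the lowest NP+ value lay just under the highest NP- value. The ratio within a tumour was 1.97, 1.22 and 1.15. The log2 fold change was 0.48 with an SE of 0.21 (edgeR adjusted p = 0.211), beside a median of 0.43 for the 16 endothelial markers. Scaled by the upper quartile it was 0.22, beside a marker median of 0.18, and by total counts 0.18, beside one of 0.13.

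**Figure D2:**
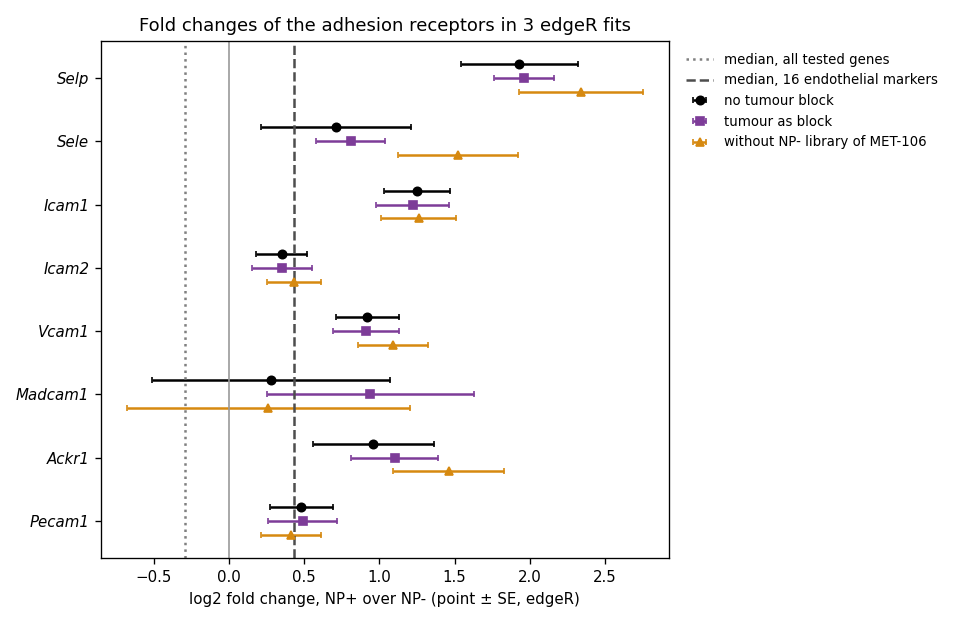
Log2 fold change of each receptor, NP+ over NP-, as point ± SE from edgeR without a tumour block (black circles), with the tumour as a block (purple squares) and without the NP- library of MET-106 (orange triangles). The dotted line is the median of all tested genes (-0.29) and the dashed line that of 16 endothelial markers (0.43). The block shortened the error bar of Selp (SE 0.20 against 0.39) and moved its point little, to 1.96 against 1.93, and Sele, Icam2, Madcam1 and Pecam1 lay within 1 SE of the dashed line in the fit without a block.

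DESeq2 called the 3 receptors that had the largest log2 fold changes relative to their SE, with adjusted p-values of 0.00013 for Selp, 7.91e-05 for Icam1 and 0.00779 for Vcam1. It called 4.31% of 22013 genes higher in NP+. In the authors' deposited table, whose log2 fold changes run NP- over NP+, the adjusted p was 9.42e-05 for Selp (-1.99), 7.25e-05 for Icam1 (-1.33) and 0.00816 for Vcam1 (-0.99). The authors' deposited table gives 0.0766 for Ackr1 (-1.02), 0.0936 for Pecam1 (-0.57), 0.193 for Icam2 (-0.43), 0.289 for Sele (-0.75) and 0.759 for Madcam1 (-0.35). Of its genes with an adjusted p, 3.71% were called higher in NP+. limma-voom called 0 of the 8, with 5 higher at an unadjusted p under 0.05, where 9.26% of all genes were higher, and 0.05% of all genes were called higher after adjustment.

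On the length-scaled level (TPM), Pecam1 was first in both fractions, at 1357 ± 225 in NP+ and 1089 ± 256 in NP- (SD, n = 3 each). Selp came next in NP+ at 953 ± 399 TPM, which was rank 135 among all genes, and stood below Pecam1, Icam2 and Ackr1 in NP- at 275 ± 109 TPM (rank 533). Ackr1 stood at 677 ± 189 TPM in NP+ and 380.1 ± 187 TPM in NP-. Icam1 stood at 553 ± 156 TPM in NP+ and 259.7 ± 32.4 TPM in NP-, and Icam2 at 476 ± 63.1 TPM in NP+ and 416 ± 23.1 TPM in NP-. Well below these, Vcam1 stood at 93.9 ± 20.6 TPM in NP+ and 55.1 ± 5.53 TPM in NP-. Sele had 90.3 ± 47.1 TPM in NP+ and 59.6 ± 38.1 TPM in NP-, and Madcam1 18.4 ± 5.03 TPM in NP+ and 16.9 ± 16.6 TPM in NP-. In NP+ the ranges of neighbours overlapped along the order Pecam1, Selp, Ackr1, Icam1, Icam2, and Vcam1 overlapped Sele, while Icam2 and Vcam1, and Sele and Madcam1, were apart. In NP- the order was Pecam1, Icam2, Ackr1, Selp, Icam1, Sele, Vcam1, Madcam1. There Pecam1 and Icam2, Icam1 and Sele, and Vcam1 and Madcam1 were apart, and the other neighbours overlapped.

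The summed level of the 8 receptors was 5366, 3794 and 3497 TPM in the NP+ libraries and 2559, 2559 and 2539 TPM in the NP- libraries. The sum was 4219 ± 1004 TPM in NP+ and 2552 ± 11.5 TPM in NP- (SD, n = 3 each, two-sided exact permutation p = 0.1). Selp took 25.9, 22.7 and 17.4% of the sum in NP+ and 14.6, 11.5 and 6.23% in NP- (two-sided exact permutation p = 0.1). Icam1 took 13.3, 14.2 and 11.6% in NP+ and 8.79, 10.4 and 11.4% in NP- (two-sided exact permutation p = 0.1). Icam2 took the smaller share in NP+, with 9.32, 13.8 and 11.6% in NP+ and 15.7, 15.7 and 17.4% in NP- (two-sided exact permutation p = 0.1). These groups did not overlap for any of the 3 receptors, while those of the other 5 did. Ackr1 took 16 ± 1.18% in NP+ and 14.9 ± 7.29% in NP-. Vcam1 took 2.25 ± 0.429% in NP+ and 2.16 ± 0.219% in NP-, and Sele 2.07 ± 0.619% in NP+ and 2.33 ± 1.49% in NP-. Pecam1 took 32.7 ± 4.68% in NP+ and 42.7 ± 10.2% in NP- (two-sided exact permutation p = 0.2).

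**Figure D3:**
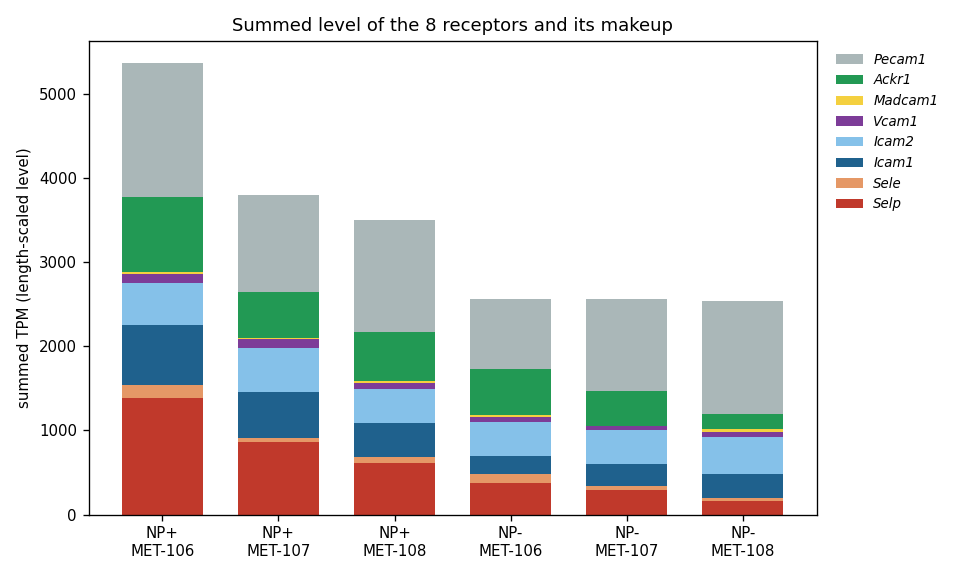
Summed length-scaled level of the 8 receptors in each library (TPM, linear axis from 0), NP+ at the left and NP- at the right, with each colour a receptor. The Selp segment takes 25.9, 22.7 and 17.4% of the NP+ bars and 14.6, 11.5 and 6.23% of the NP- bars.

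Because the endothelial markers were higher in NP+ as a group, each receptor was also set against the summed reads of the 16 markers in its own library. Per 1000 such reads, Selp had 166, 114 and 73.9 reads in the NP+ libraries and 74.1, 42.3 and 23.3 in the NP- libraries. It was higher in 3 of 3 tumours, by 2.24, 2.70 and 3.17 times, although the groups touched across tumours (two-sided exact permutation p = 0.2). Icam1 had 84.6, 70.7 and 48.5 reads in NP+ and 44.1, 37.6 and 42.1 in NP-, with no overlap (two-sided exact permutation p = 0.1). Vcam1 had 25.8, 27.8 and 17.1 in NP+ and 23.7, 14.1 and 16.9 in NP-. Ackr1 had 34, 23.4 and 22.5 reads in NP+ and 34.8, 18.8 and 8.41 in NP-, and was higher in 2 of 3 tumours. On this scale Pecam1 (237 ± 28.2 reads in NP+ and 245 ± 30.3 in NP-), Icam2 (25.6 ± 4.43 in NP+ and 29.2 ± 4.83 in NP-) and Madcam1 (0.729 ± 0.170 in NP+ and 0.881 ± 0.780 in NP-) had NP+ means under their NP- means. Sele had 7.31 ± 3.52 reads in NP+ and 6.92 ± 5.74 in NP-. The p-values adjusted over the 8 comparisons ran from 0.533 to 0.9 (exact permutation tests). These tests do not pair the libraries of a tumour. None can go below 0.1, so no receptor could have had an adjusted p under 0.05.

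**Figure D4:**
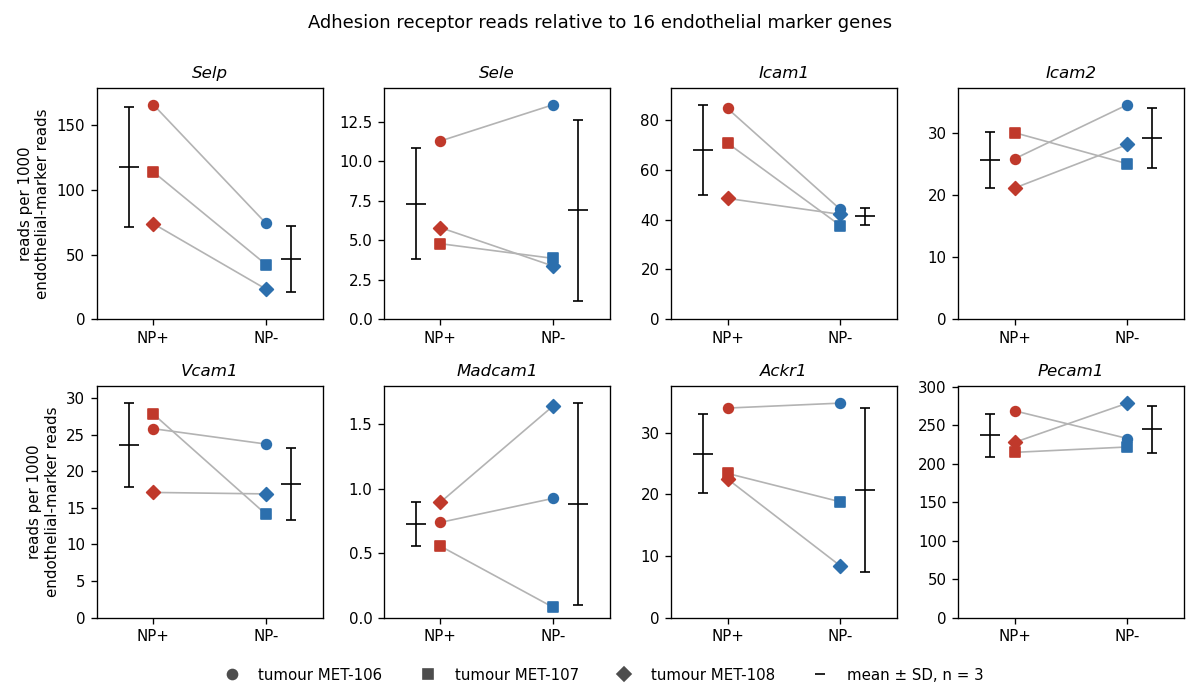
Reads of each receptor per 1000 reads in 16 endothelial marker genes of the same library (linear axes from 0), NP+ in red at the left and NP- in blue at the right. Lines join the libraries of a tumour, and bars are mean ± SD (n = 3). Selp, Icam1 and Vcam1 are higher in NP+ in 3 of 3 tumours, while Pecam1 and Icam2 are so in 1 of 3.

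The genes around these receptors were read from 9 lists, of which 104 genes were tested. None had an adjusted p under 0.05 over all genes in edgeR's test. At an unadjusted p under 0.05, 31 were higher and 16 lower in NP+, and their median log2 fold change was 0.34. Of all tested genes 8.01% were higher and 15.4% lower at that threshold, and of those averaging at least 5 CPM 17.5% were higher. The count of 31 was 11 with upper-quartile scaling, 8 with total counts, 9 when the fit kept just genes that reach 5 CPM in 3 libraries and 20 without the NP- library of MET-107. Over all 23989 tested genes the count of 1922 higher became 785 with upper-quartile scaling and 610 with total counts. The 5 CPM fit tested fewer genes, 10671, and had 687 higher. The count of 16 was 8 without the NP+ library of MET-106 or that of MET-108. With total-count scaling the medians of the Weibel-Palade genes, the inducing receptors and the transcription factors were -0.28, -0.0033 and -0.08, and those of the other 6 lists kept their sign.

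Partners that sit beside the receptors at the junction and under the membrane had mostly positive log2 fold changes, 12 of 12 and 10 of 13, and 10 of 12 and 10 of 13 with upper-quartile or total-count scaling. Of 12 junction genes of transmigration, 5 were higher and 0 lower at an unadjusted p under 0.05, with a median log2 fold change of 0.50. At the same threshold 7 of the 16 endothelial markers were higher and 0 lower (median 0.43). The 2 lists are not separate, since Cdh5 and Esam are in both and Esam counts as higher in each. Of all tested genes 8.01% were higher and 15.4% lower. Among genes averaging at least 5 CPM, as all junction genes and cytoskeletal partners here do, 17.5% were higher. Ptprb, the gene of the phosphatase VE-PTP, stood at 1020.2 ± 222 CPM in NP+, against 636 ± 96.2 CPM in NP- (edgeR adjusted p = 0.145). Cd151, a tetraspanin gene, stood at 151, 145 and 166 CPM in NP+, against 92.7, 102 and 124 CPM in NP- (edgeR adjusted p = 0.149). Ctnnd1, the p120-catenin gene, stood at 78.9 ± 2.32 CPM in NP+, against 53.0 ± 11.4 CPM in NP- (edgeR adjusted p = 0.159). Of 13 cytoskeletal partners, 6 were higher and 1 lower, with a median of 0.44. Msn and Rdx encode moesin and radixin, which link membrane proteins to actin. Msn stood at 3834 ± 442 CPM in NP+, against 2383 ± 503 CPM in NP- (edgeR adjusted p = 0.143), and Rdx at 191 ± 12.3 CPM in NP+, against 85.4 ± 44.0 CPM in NP- (edgeR adjusted p = 0.145). Their relative Ezr, the ezrin gene, was named after its values were seen and went the other way. It stood at 44.7 ± 7.2 CPM in NP+, against 65.8 ± 36.1 CPM in NP- (edgeR adjusted p = 0.342). The GTPase gene Rac1 stood at 55.2 ± 13.7 CPM in NP+, against 35.3 ± 3.83 CPM in NP- (edgeR adjusted p = 0.162).

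Storage genes of the Weibel-Palade body, where P-selectin waits, did not share a direction. Of 10, 2 were higher and 1 lower at an unadjusted p under 0.05, with a median of 0.02. At that threshold 8.01% of all tested genes were higher and 15.4% lower, and 17.5% of those averaging at least 5 CPM were higher. Angpt2, the angiopoietin-2 gene, stood at 842 ± 127 CPM in NP+, against 461 ± 214 CPM in NP-, and Vwf, the von Willebrand factor gene, at 775 ± 216 CPM in NP+, against 500.4 ± 141 CPM in NP- (edgeR adjusted p = 0.160 and 0.219).

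Of 17 other surface adhesion proteins and their regulators, 16 were tested, with 5 higher and 4 lower at an unadjusted p under 0.05 and a median of 0.33. All tested genes were higher in 8.01% of cases and lower in 15.4%, and those averaging at least 5 CPM were higher in 17.5%. Clec14a, an endothelial lectin gene, stood at 398 ± 42.1 CPM in NP+, against 257 ± 15.2 CPM in NP-, and Podxl, the gene of the sialomucin podocalyxin, at 264 ± 62.4 CPM in NP+, against 129 ± 54.1 CPM in NP- (edgeR adjusted p = 0.125 and 0.148). Stab2, a scavenger receptor gene of sinusoidal and lymphatic endothelium, stood at 2.24 ± 0.469 CPM in NP+, against 8.54 ± 5.52 CPM in NP- (edgeR adjusted p = 0.146). Of 10 genes that build selectin ligands, 9 were tested, with 3 higher and 1 lower and a median of 0.42. The fucosyltransferase gene Fut4 stood at 52.3 ± 8.83 CPM in NP+, against 23.8 ± 8.09 CPM in NP- (edgeR adjusted p = 0.120). The galactosyltransferase gene B4galt1 stood at 136 ± 24.5 CPM in NP+, against 61.5 ± 32.7 CPM in NP- (edgeR adjusted p = 0.142). The sulfotransferase gene Chst2 stood at 29.2 ± 4.61 CPM in NP+, against 18.3 ± 1.29 CPM in NP- (edgeR adjusted p = 0.151).

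Among 12 receptors of signals that induce adhesion genes, 3 were higher and 0 lower at an unadjusted p under 0.05, with a median of 0.30. Beside these and the counts below, 8.01% of all tested genes were higher and 15.4% lower. Among genes averaging at least 5 CPM, 17.5% were higher. Ltbr, the lymphotoxin-beta receptor gene, stood at 190.4 ± 14.7 CPM in NP+, against 128 ± 17.5 CPM in NP-. Il13ra1, a subunit gene of the interleukin-13 receptor, stood at 239 ± 23.7 CPM in NP+, against 149 ± 36.4 CPM in NP-, and Ifngr2, of the interferon-gamma receptor, at 136 ± 15.2 CPM in NP+, against 50.0 ± 49.4 CPM in NP- (edgeR adjusted p = 0.142, 0.145 and 0.191 for the 3 genes). Among 15 transcription factors and regulators of adhesion genes, 4 were higher and 2 lower, with a median of 0.21. Klf4, a flow-induced factor known to restrain adhesion genes, stood at 28.9 ± 2.12 CPM in NP+, against 56.2 ± 6.03 CPM in NP- (edgeR adjusted p = 0.0928). Its relative Klf2, also in the list and named after its values were seen, was nearly level. Klf2 stood at 19.3 ± 3.47 CPM in NP+, against 21 ± 4.6 CPM in NP- (edgeR adjusted p = 0.781). The 5 NF-kappaB subunit genes of the list did not share a direction. Relb stood at 114 ± 23.5 CPM in NP+, against 29.6 ± 14.9 CPM in NP- (edgeR adjusted p = 0.0992), and Nfkb2 at 167 ± 40.1 CPM in NP+, against 88.3 ± 36.5 CPM in NP- (edgeR adjusted p = 0.150). The other 3, named after their values were seen, had log2 fold changes of 0.28 (Rela), 0.21 (Nfkb1) and -0.38 (Rel), with edgeR adjusted p-values of 0.453, 0.570 and 0.598. Of 6 shedding proteases, 1 was higher and 1 lower, with a median of 0.43. Mmp14, a membrane-bound matrix metalloproteinase gene, stood at 320.1 ± 48.8 CPM in NP+, against 86.7 ± 47.5 CPM in NP- (edgeR adjusted p = 0.0887). Adam10 stood at 671, 534 and 643 CPM in NP+, against 336, 441 and 553 CPM in NP-, and Adam15 at 764 ± 105 CPM in NP+, against 424 ± 218 CPM in NP- (edgeR adjusted p = 0.225 and 0.226).

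**Figure D5:**
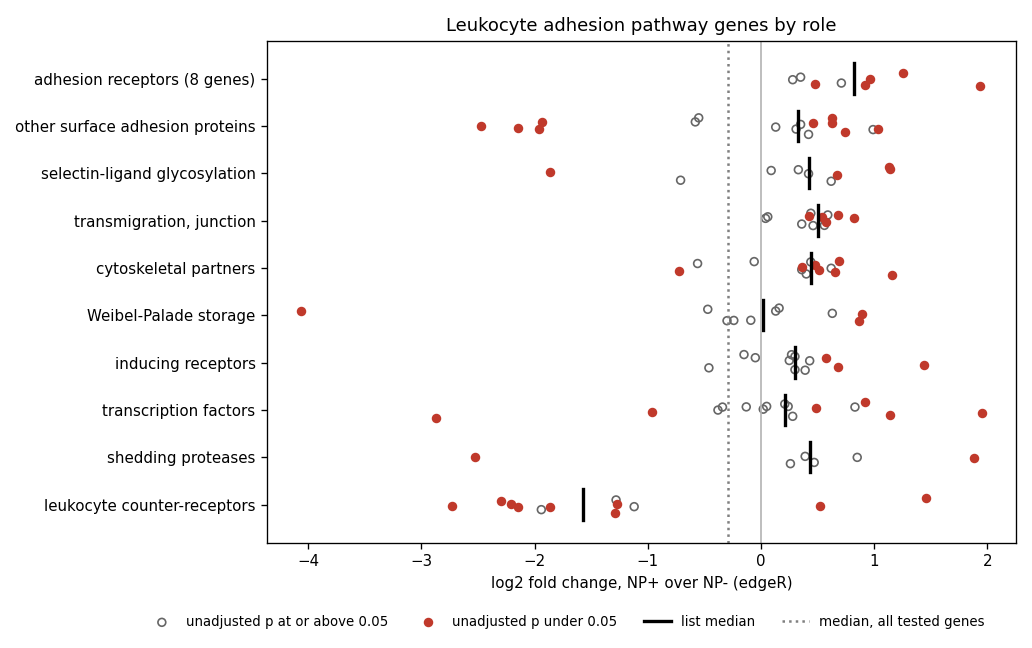
Log2 fold change, NP+ over NP- (edgeR), of each tested gene in the lists around leukocyte adhesion, 1 point per gene. Filled points have an unadjusted p under 0.05, black bars are list medians and the dotted line is the median of all tested genes (-0.29). The receptor list has a median of 0.82 and the leukocyte counter-receptors one of -1.57.

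Of 12 counter-receptors on leukocytes, none passed after adjustment in edgeR's test. At an unadjusted p under 0.05, 2 were higher and 7 lower, with a median of -1.57, where 8.01% of all tested genes were higher and 15.4% lower. The 2 higher ones, Itgb1 and Itgav, encode integrin subunits that endothelial cells also make. Itgb1 stood at 2200.2 ± 213 CPM in NP+, against 799.9 ± 418 CPM in NP-, and Itgav at 42 ± 4.11 CPM in NP+, against 29.4 ± 2.84 CPM in NP- (edgeR adjusted p = 0.122 and 0.176). Cd44, a receptor gene of leukocytes and stroma, stood at 8.29 ± 2.13 CPM in NP+, against 36.9 ± 35.5 CPM in NP- (edgeR adjusted p = 0.175). Platelets carry P-selectin, PECAM-1 and ICAM-2 of their own. The summed level of 9 platelet markers was 9.98 to 11 CPM in NP+ libraries and 12 to 17.6 CPM in NP- libraries, with Gp1bb at 2 reads in all 6 together. Markers of leukocytes had summed levels that were lower in each NP+ library than in any NP- library. The sum of 10 macrophage markers was 17.8 to 29.8 CPM in NP+, against 43.0 to 124 CPM in NP-. That of 8 neutrophil markers was 4.31 to 6.82 CPM in NP+, against 7.23 to 98.6 CPM in NP-, and that of 11 lymphocyte markers 5.92 to 6.45 CPM in NP+, against 19.0 to 39.0 CPM in NP-.

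Venous markers had mostly positive log2 fold changes (7 of 8) and lymphatic markers negative ones (7 of 7, with Flt4 at -0.01). Of 8 venous markers, 5 were higher and 0 lower at an unadjusted p under 0.05 (median 0.80). Selp, Vcam1 and Ackr1 themselves are among these 5, beside Ephb4 (log2 fold change 1.26) and Aplnr (0.68). The other venous markers were Vwf (0.63), Lrg1 (0.14) and Nr2f2 (-0.34). At that threshold 8.01% of all tested genes were higher and 15.4% lower, and 17.5% of those averaging at least 5 CPM were higher. The 8 venous markers, receptors included, summed to 5822 to 8394 CPM in NP+, against 3428 to 4494 CPM in NP-. Of 7 lymphatic markers 0 were higher and 4 lower (median -1.86), and they summed to 399 to 457 CPM in NP+, against 255, 1761 and 733 CPM in the NP- libraries. In MET-106 the lymphatic sum was thus higher in NP+, at 402 CPM against 255 CPM. Whether the share of venous or lymphatic cells sets the receptor levels was not tested.

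Among 10825 genes of at least 5 CPM on average, those with the pattern most like each receptor over the 6 libraries are given as a description. All 6 points share their library's scaling and come from the same 3 tumours. For Selp they were Cux1 and Ssrp1 (Pearson r of log2 CPM 0.995 and 0.989), for Sele Amacr and Abcg2 (0.996 and 0.987), and for Icam1 Parp9 and Meox1 (0.998 and 0.990). For Vcam1 they were Eml4 and Iqcg (0.987 each), for Icam2 Gm7964 and Iqcg (0.982 and 0.974), and for Madcam1 Mavs and Slc35f2 (0.994 and 0.992). For Ackr1 they were Rnf168 and Kmt5b (0.995 each), and for Pecam1 Stat6 and Kctd20 (0.997 each). Among the receptors, Selp went most closely with Ackr1 (r = 0.93), Vcam1 (0.91) and Icam1 (0.89), Icam2 with Vcam1 (0.97), and Madcam1 with none above 0.48.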

How the data were processed

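Sorted cells were frozen in Trizol, their RNA was amplified with SMART-Seq v4, a kit that marks neither strand nor molecules, and libraries were read as pairs of 150 bp, per the labels' protocols. The deposited files hold 1 count per gene and library, made on GRCm38 with Trimmomatic 0.036, STAR 2.5.2b and featureCounts of Subread 1.5.2, per the submitters' processing notes. The sources used here do not give strand, multi-mapping or annotation settings, so genes that overlap another are uncertain. The authors' deposited table holds a signal (the count divided by a size factor), p-values and log2 fold changes, which run NP- over NP+ for 99.93% of its genes. Divided by the worth of 1 read, 100% of its 156426 signal values were whole numbers (tolerance 0.01) and identical to the count files; edgeR on these reads called 3 genes higher and 4 lower.

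Counts were tested with edgeR 4.0.16 (R 4.3.3, limma 3.58.1, DESeq2 1.42.0) by the quasi-likelihood test with TMM scaling and filterByExpr (minimum count 10), which kept 23989 genes. P values were adjusted over all of them by the Benjamini-Hochberg method at a threshold of 0.05. All 8 receptors passed the filter. The SE is the size of the log2 fold change divided by the square root of F. CPM are scaled by TMM, and TPM were computed from the counts and the exon lengths in the count files. The code of a tumour in the labels pairs the 2 fractions; deviations of paired libraries from their group means correlated at 0.24, 0.19 and 0.06. The tumour block was an alternative, and without it the p-values rest on the spread between 3 tumours. The labels do not say how many mice bore the tumours. Counts have no molecular identifiers.

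The receptors, the lists and the tests were chosen with earlier results of these data known. Named list genes are the up to 3 per list with the smallest p and a mean of at least 5 CPM, and for each receptor the 2 genes of that mean with the highest r. Of the genes this rule names, 1 is not reported here. Alternatives were the block, DESeq2, limma-voom, other scalings and filters, and each library left out. Added after the data were seen were reads recovered from the deposited signal and the looser kappaB spelling. The tests were tried on simulated data.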

Additional observations from a re-analysis of the deposited data

How the results depend on the processing

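Selp passed the adjusted threshold with the tumour as a replicate block (log2 fold change 1.96, edgeR adjusted p = 0.0319), and the block changed no other adjusted call among the receptors. At an unadjusted p under 0.05 it dropped Pecam1 and gained Sele. In DESeq2, Selp (1.97), Icam1 (1.31) and Vcam1 (0.97) passed, with 949 of 22013 genes called higher. Without a low-count filter they passed at 2.07, 1.45 and 1.09, with 525 of 44259 genes called higher. Without the NP- library of MET-106 they passed at 2.34, 1.26 and 1.09, with 968 of 27794 genes called higher. Leaving out single libraries gave log2 fold changes of 1.65 to 2.34 for Selp, 1.16 to 1.55 for Icam1 and 0.83 to 1.19 for Vcam1. Madcam1 turned to -0.01 with upper-quartile and to -0.0016 with total-count scaling, and ran from -0.24 to 1.25 over the libraries left out. Those scalings set the median log2 fold change of all genes at -0.53 and -0.59, against -0.29 with TMM. Over all settings that kept the 6 libraries, the lowest log2 fold change was 0.95 for Icam1, 0.63 for Vcam1, 0.06 for Icam2 and 0.18 for Pecam1, below any value with a library left out.

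Among all genes, edgeR called 3 higher and 4 lower in NP+. The tumour block gave 2 higher and 13 lower, DESeq2 949 and 2353, limma-voom 12 and 6, upper-quartile scaling 3 and 18, total counts 2 and 9, no filter 525 and 686, and at least 5 CPM in 3 libraries 18 and 87. Leaving out a library gave 0 to 968 higher and 0 to 1352 lower. The edgeR fits without an NP+ library or without the NP- library of MET-107 gave 0 and 0, with 1113 to 1701 genes higher and 2289 to 3739 lower at an unadjusted p under 0.05. The fit without the NP- library of MET-106 gave 968 and 1352, and that without the NP- library of MET-108 gave 113 and 177. The count of 5 receptors at an unadjusted p under 0.05 was 3 with upper-quartile scaling, total counts or the 5 CPM filter, and 3 to 6 over the libraries left out. The 31 higher genes in the lists became 11 with upper-quartile scaling, 8 with total counts and 9 with the 5 CPM filter, and the 16 lower became 6 with that filter. Over the libraries left out they were 20 to 46 and 8 to 14.

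Relative to the endothelial markers, plain CPM turned Icam2 to 0.35, Madcam1 to 0.28 and Pecam1 to 0.48. Over the libraries left out the log2 ratio was -0.39 to 1.02 for Sele, -0.81 to 0.54 for Madcam1, -0.01 to 0.97 for Ackr1 and -0.15 to 0.06 for Pecam1. In the order by mean level over all 6 libraries, plain CPM in place of TPM moved 4 receptors: Icam1 stood 3 in the order in place of 5, Ackr1 5 in place of 3, Vcam1 6 in place of 7 and Sele 7 in place of 6. The cause of these changes was not tested. With 3 libraries a group, exact permutation tests, which here leave the pairing by tumour out, cannot go below 0.1.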
